A study of Mus musculus with 16 samples.

Results

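The urokinase plasminogen activation system was followed in mouse subchondral bone through 5 genes: Plau, Plaur, Plat, Serpine2 and Serpinb2. Every non-control probe that the array files name for one of these genes was taken, which gave 8 of the 56605 non-control probes (5 of 37074 gene names). RNA came from the bone under the cartilage of the medial tibia, cut by laser from frozen sections and pooled per joint. One joint of 1 male C57BL6 mouse, labelled WT (wild type) and aged 10 to 12 weeks, was placed on each of 16 single-colour Agilent arrays. The 4 groups of 4 arrays were joints 1 week after a sham operation, 1 week after destabilisation of the medial meniscus (DMM), and 6 weeks after each of the 2 operations. DMM cuts the ligament that ties the medial meniscus to the tibia and is a surgical model of osteoarthritis. In the sham operation that ligament was exposed and left whole. Each mouse had the same operation on both knees, so no group holds an unoperated knee. Any difference in age between the mice of the 1-week and 6-week groups cannot be told apart from time since the operation.

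Urokinase (Plau) and tissue plasminogen activator (Plat) are serine proteases that cut plasminogen to plasmin, a broad protease that dissolves fibrin and acts on other matrix proteins. Urokinase does this at the cell surface, bound to its receptor, which Plaur encodes. Serpine2 (protease nexin 1) and Serpinb2 (plasminogen activator inhibitor 2) are inhibitors of the serpin family. Serpine2 blocks thrombin as well as the plasminogen activators, and Serpinb2 is found mostly inside cells. In bone, plasminogen activation has been studied in resorption, fracture repair and the turnover of marrow cells.

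Levels are log2 of the scanner software's background-corrected intensity minus the 75th percentile of the same array, so 0 means as bright as that percentile. Different probes bind their targets with different strength, so levels of different genes were not ranked against each other. The 75th percentile itself lay between 329 and 873 intensity units, lowest in sham replicate 2 at 6 weeks, and between 65.2% and 79.5% of probes were well above background. The arrays sat on 2 slides of 8, with 2 arrays of each group on each. All markers of osteoblasts (7), osteocytes (5) and osteoclasts (7) were well above background on every array. So were all markers of neutrophils (9), of macrophages and monocytes (9) and of megakaryocytes and platelets (8), cell types of the marrow. The same held for markers of endothelium (7), smooth muscle and pericytes (4), mast cells and basophils (4), erythroid cells (3 on the array) and keratinocytes and skin (4). Signal above background thus does not by itself show which cell types were cut. Markers of chondrocytes (6 to 8 of 8 above background) and skeletal muscle (2 to 4 of 4) were also read. In such pooled tissue, fewer cells of a type and less RNA per cell cannot be told apart.

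The probes are shown because each value given for a gene rests on the 60 bases of a single probe. Positions are those of the array design on mm9, written from the lower to the higher coordinate, and the sequences are read from the array files in lower case throughout. Where a sequence has 30 bases, these are the first 30 of the probe. Whether a probe lies in an exon or an untranslated region was not analysed here.
Plau, A_55_P2842483, chr14:21662487-21662546, plus strand: cactgggtggggtaaggaccacttctacat
Plau, A_51_P305311, chr14:21659855-21660221, plus strand: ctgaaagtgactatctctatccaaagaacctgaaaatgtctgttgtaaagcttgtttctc
Plaur, A_52_P681310, chr7:25260569-25260628, plus strand: ccctcgtgttgtcttctttggacctcagtt
Plat, A_52_P409833, chr8:23892531-23892590, plus strand: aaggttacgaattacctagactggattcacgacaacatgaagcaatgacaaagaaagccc
Plat, A_52_P405772, chr8:23886301-23886360, plus strand: gaaagatgatggacgttatttagagaaacc
Serpine2, A_55_P2902822, chr1:79790914-79790973, minus strand: cgtgtgttgtttctgttgctgttgcttttg
Serpine2, A_55_P2720440, chr1:79854083-79854142, minus strand: ggtgctttgaacactttctgtggttctaaa
Serpinb2, A_51_P101146, chr1:109421496-109421555, plus strand: ttggtagattctcctcaccctaaaagggga

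The 60 bases of the second Plau probe are spread over 367 genomic bases, so they are not contiguous in the genome. The other 7 probes each cover 60 genomic bases without a gap. The 2 Serpine2 probes lie 63109 bases apart on mm9, while the whole Serpine2 gene measures 64349 bases in the RefSeq annotation of a different build, GRCm38.p6. The design names a different transcript for each of those 2 probes, and likewise for the 2 Plat probes, which lie 6170 bases apart. Of the 8 probes, 7 passed the filter for testing, a signal above background on 4 or more arrays whatever their group. The exception was the Plat probe A_52_P405772, which was not well above background on any array. For each gene the probe with the highest mean over the arrays is given first.

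**Figure D1:**
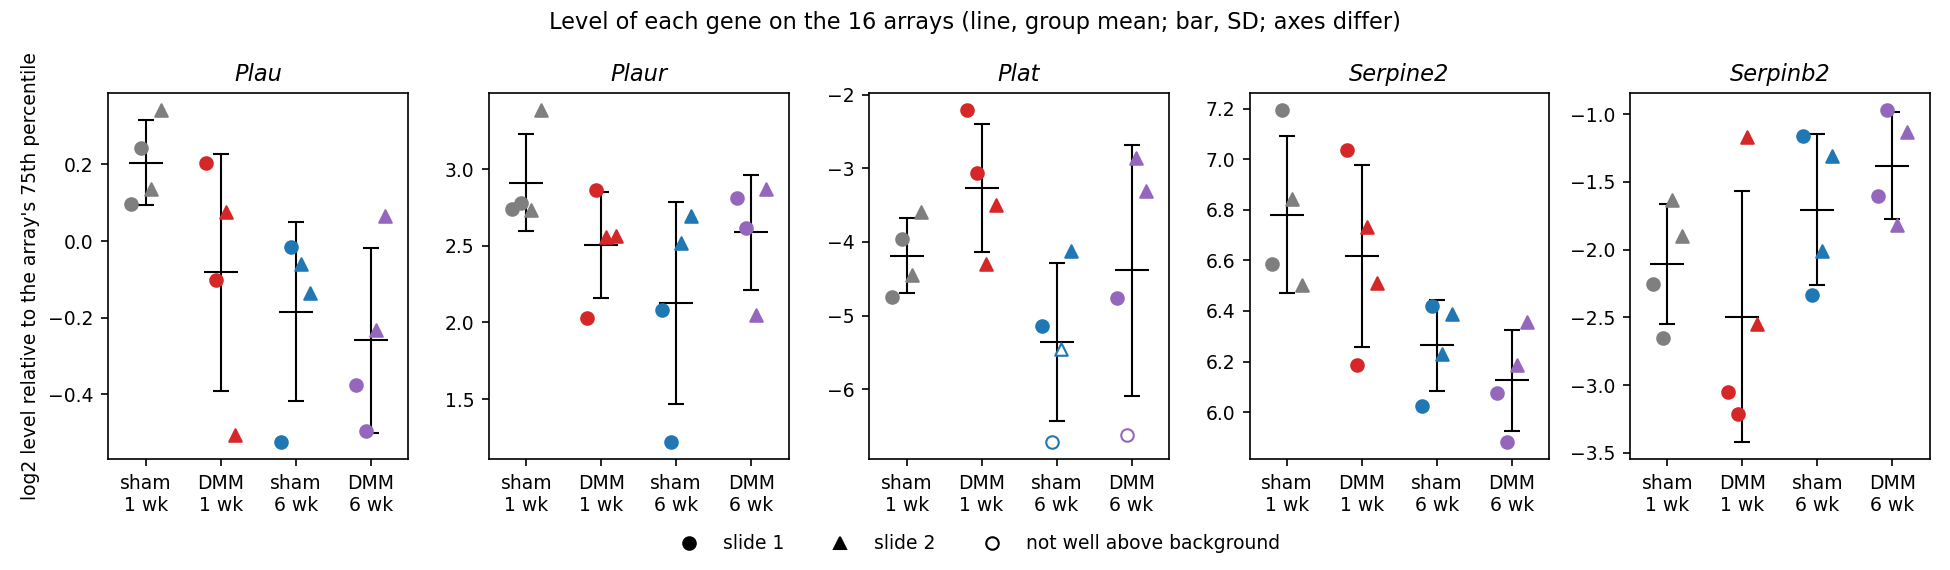
Level of each gene's main probe (log2 relative to the array's 75th percentile) on the 16 arrays, by operation and week. Points are arrays, filled where the probe was well above background, circles for slide 1 and triangles for slide 2, and black lines and bars are the group mean and SD (n = 4). Plat spans 4.51 log2 units and Plau only 0.87, and for Plaur, Plau and Serpine2 the sham arrays at 6 weeks all lie below the sham arrays at 1 week.

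Plau, the protease urokinase, differed little between arrays. After sham at 1 week its levels on the log2 scale were 0.10, 0.24, 0.14 and 0.34. One week after DMM they were 0.20, -0.10, 0.08 and -0.51. The 3 lower values of the DMM arrays lie below all 4 sham arrays, and the highest lies among them. At 6 weeks Plau read -0.53, -0.01, -0.06 and -0.14 after sham. After DMM the 6-week values were -0.37, -0.49, -0.23 and 0.07. The mean level was 0.20 ± 0.11 (SD, n = 4) and -0.08 ± 0.31 after sham and DMM at 1 week, and -0.18 ± 0.23 and -0.26 ± 0.24 at 6 weeks. DMM minus sham was -0.29 ± 0.19 (SE) at 1 week (limma adjusted p = 1.00) and -0.08 ± 0.19 at 6 weeks (limma adjusted p = 0.999). The 95% interval at 6 weeks ran from -0.47 to 0.32. Without DMM replicate 4, the lowest array of its group, the 1-week difference was -0.14. The second Plau probe ranged from -3.16 to -2.14 and gave -0.00 ± 0.22 at 1 week and -0.10 ± 0.22 at 6 weeks. Over the 16 arrays the 2 Plau probes correlated only loosely (r = 0.33, rho = 0.45), so differences between single arrays were not shared between them.

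Plaur, the urokinase receptor, was read well above background on every array. After sham at 1 week its log2 levels were 2.74, 2.78, 2.73 and 3.38. Replicate 4 stands apart from 3 nearly equal arrays. One week after DMM the levels were 2.03, 2.86, 2.56 and 2.56, with 3 of 4 below every sham array. At 6 weeks they were 2.08, 1.22, 2.52 and 2.69 after sham, where replicate 2 holds the lowest Plaur level of all 16 arrays. After DMM at 6 weeks they were 2.81, 2.62, 2.05 and 2.87. Group means (± SD, n = 4) were 2.91 ± 0.32 and 2.50 ± 0.35 after sham and DMM at 1 week, and 2.13 ± 0.66 and 2.59 ± 0.38 at 6 weeks. The DMM difference was -0.41 ± 0.30 at 1 week (limma adjusted p = 1.00) and 0.46 ± 0.30 at 6 weeks (limma adjusted p = 0.999). Neither passed the test, and neither did the difference between the 2 effects, 0.86 ± 0.43 (limma adjusted p = 1.00). At 6 weeks the DMM difference was 1.07 on slide 1 and -0.15 on slide 2. It was 0.16 without sham replicate 2 at 6 weeks, the array with the dimmest signal. That array also had the lowest mean log2 level of macrophage and monocyte markers (2.40) and the highest of chondrocyte markers (1.46).

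Plat, the tissue plasminogen activator, varied over a wide range and was not read on all arrays. It was well above background on 4 of 4 arrays in both 1-week groups, on 2 of 4 after sham at 6 weeks and on 3 of 4 after DMM at 6 weeks. Levels after sham at 1 week were -4.75, -3.96, -4.44 and -3.59. After DMM at 1 week they were -2.21, -3.06, -4.30 and -3.49, with 3 of 4 above every sham array. At 6 weeks the sham arrays read -5.13, -6.72, -5.46 and -4.12, of which replicates 2 and 3 were not well above background. The DMM arrays at 6 weeks read -4.76, -6.63, -2.86 and -3.30, and replicate 2 was not well above background. Mean levels of Plat were -4.18 ± 0.51 (SD, n = 4) and -3.27 ± 0.87 after sham and DMM at 1 week, and -5.36 ± 1.07 and -4.39 ± 1.70 at 6 weeks. The standard deviation of Plat over the 16 arrays, 1.27, was larger than that of 99.0% of the tested probes. That share is over probes of all levels, and no comparison with equally dim probes was made. The lowest values, -6.72 and -6.63, came from arrays on which Plat was not well above background. DMM minus sham was 0.92 ± 0.72 at 1 week (limma adjusted p = 1.00) and 0.97 ± 0.72 at 6 weeks (limma adjusted p = 0.999). Averaged over both times, a contrast chosen after seeing the data, it was 0.94 ± 0.51 (limma adjusted p = 1.00). Of the 8 DMM arrays, 7 lay above the mean of the sham arrays of both times together. Against the sham mean of the same week it was 3 of 4 at 1 week and 3 of 4 at 6 weeks. The averaged difference was 0.97 on slide 1 and 0.91 on slide 2, although the slides differed at each single time: 1.72 and 0.12 at 1 week, 0.23 and 1.71 at 6 weeks. The interval of the averaged difference ran from -0.14 to 2.03. With normexp background correction, the alternative treatment of dim signals, DMM minus sham was 0.46 at 1 week, 0.24 at 6 weeks and 0.35 on average. Leaving out 1 array moved the 1-week difference between 0.56 (without DMM replicate 1) and 1.26 (without DMM replicate 3). The 6-week difference moved between 0.46 (without DMM replicate 3) and 1.72 (without DMM replicate 2, which was not well above background).

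Serpine2, the inhibitor protease nexin 1, was well above background on all arrays. After sham at 1 week the log2 levels were 6.59, 7.19, 6.84 and 6.50. After DMM at 1 week they were 7.04, 6.19, 6.73 and 6.51, which overlap the sham arrays over most of their range. At 6 weeks the sham arrays read 6.02, 6.42, 6.23 and 6.39 and the DMM arrays 6.08, 5.88, 6.19 and 6.36. The groups at 6 weeks overlap each other, and all 8 arrays lie below 6.50. Serpine2 averaged 6.78 ± 0.31 (SD, n = 4) and 6.62 ± 0.36 after sham and DMM at 1 week, and 6.27 ± 0.18 and 6.13 ± 0.20 at 6 weeks. DMM minus sham was -0.16 ± 0.21 at 1 week (limma adjusted p = 1.00) and -0.14 ± 0.21 at 6 weeks (limma adjusted p = 0.999). The second probe gave 0.28 ± 0.38 at 1 week, the opposite sign, and -0.67 ± 0.38 at 6 weeks. Its levels ranged from -1.40 to 0.66, and the 2 probes went together over the 16 arrays (r = 0.71, rho = 0.67).

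Serpinb2, the inhibitor first known as plasminogen activator inhibitor 2, varied more within groups than between sham and DMM. After sham at 1 week the log2 levels were -2.25, -2.65, -1.63 and -1.90. One week after DMM they were -3.05, -3.21, -1.17 and -2.55. Replicates 1 and 2 of the DMM arrays are the lowest of all 16, and replicate 3 of the same group is among the highest. At 6 weeks the sham arrays read -1.16, -2.34, -2.01 and -1.31. After DMM at 6 weeks the values were -1.60, -0.97, -1.81 and -1.13, all above the mean of the 1-week DMM arrays. Means of the 4 arrays were -2.11 ± 0.44 (SD) and -2.49 ± 0.93 after sham and DMM at 1 week, and -1.70 ± 0.56 and -1.38 ± 0.39 at 6 weeks. DMM minus sham was -0.39 ± 0.41 at 1 week (limma adjusted p = 1.00) and 0.32 ± 0.41 at 6 weeks (limma adjusted p = 0.999). With 1 array left out the 1-week difference lay between -0.83 (without DMM replicate 3) and -0.15 (without DMM replicate 2), and the 6-week one between 0.11 (without sham replicate 2) and 0.50 (without sham replicate 1).

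Against the question of what DMM changes in this bone, 0 of the 7 tested member probes were called at 1 week or at 6 weeks at a limma adjusted p under 0.05. Of all 43268 probes, 0% were called in each of these 2 comparisons. At an unadjusted p under 0.05 the members again gave 0 of 7 at either time, beside 0.975% of all probes at 1 week and 0.904% at 6 weeks. The 4 DMM arrays were separate from the 4 sham arrays for 0 of 7 member probes, beside 1.24% of all probes at 1 week and 0.508% at 6 weeks. For the difference between the 2 effects the counts were 0 of 7 both adjusted and unadjusted, beside 0% and 0.726% of all probes. The mean of the 2 effects gave 0 of 7 as well, beside 0% adjusted and 1.08% unadjusted, and 0 of 7 with separate groups of 8, beside 0.00231%. The SE of these differences was 0.19 for Plau and 0.72 for Plat, beside a median of 0.29 over all probes.

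**Figure D2:**
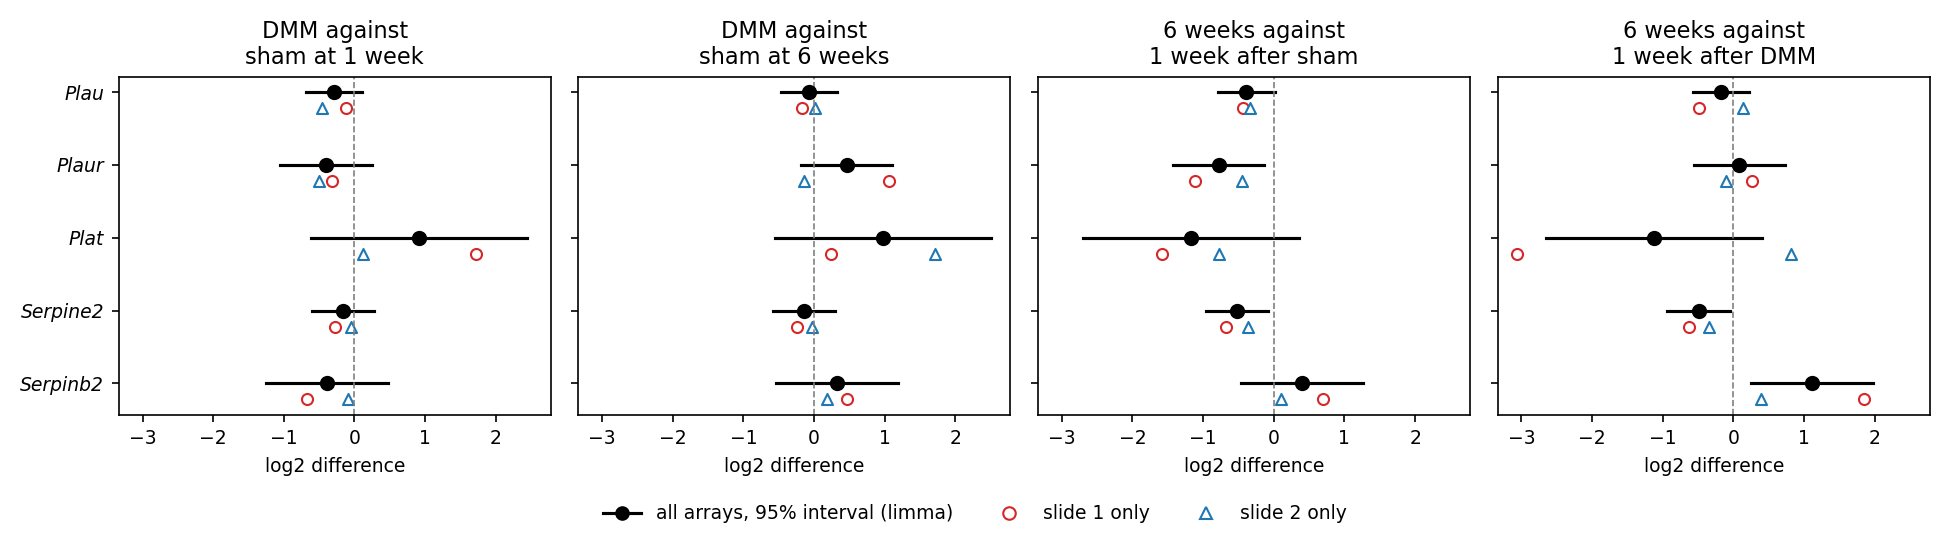
Log2 difference of each gene's main probe in 4 comparisons, with the 95% interval from limma over 4 arrays against 4 (black), and the same difference within slide 1 (red circle) and slide 2 (blue triangle). All intervals of DMM against sham include 0, and the intervals of Serpine2 lie below 0 in both comparisons of 6 weeks with 1 week.

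From 1 to 6 weeks Plaur, Plat, Serpine2 and Plau had negative differences after sham, and Serpinb2 had a positive one after both operations. After sham, Plaur differed by -0.78 ± 0.30 on the log2 scale (limma adjusted p = 0.628), and the 2 groups did not overlap. The difference was -1.11 on slide 1 and -0.45 on slide 2, and -0.48 without sham replicate 2 at 6 weeks. After DMM the same gene differed by 0.08 ± 0.30 between the times. Serpine2 was -0.52 ± 0.21 after sham (limma adjusted p = 0.629), with no overlap, and -0.49 ± 0.21 after DMM (limma adjusted p = 0.415). Plau differed by -0.39 ± 0.19 after sham, with no overlap, and by -0.18 ± 0.19 after DMM. Serpinb2 went the other way, 0.40 ± 0.41 after sham and 1.11 ± 0.41 after DMM (limma adjusted p = 0.345). Plat differed by -1.17 ± 0.72 after sham and -1.12 ± 0.72 after DMM, the last being -3.06 on slide 1 and 0.82 on slide 2. Both Plat differences lay nearer to 0 with normexp, -0.11 after sham and -0.34 after DMM. They were -0.72 after sham without sham replicate 2 at 6 weeks and -0.37 after DMM without DMM replicate 2 at 6 weeks, arrays on which Plat was not well above background. For Serpinb2 after DMM the difference on slide 1 was 1.84 and on slide 2 it was 0.39.

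None of these passed the adjusted threshold: 0 of 7 member probes were called after sham and 0 of 7 after DMM, beside 0% of all probes in each. At an unadjusted p under 0.05 there were 2 of 7 after sham, both lower at 6 weeks, beside 7.34% of all probes. After DMM there were 3 of 7, beside 10.3% of all probes: both Serpine2 probes, lower, and Serpinb2, higher. The second Serpine2 probe differed by -1.18 ± 0.38 after DMM (limma adjusted p = 0.292) and by -0.23 ± 0.38 after sham. The 2 sham groups were separate for 3 of 7 member probes, beside 5.44% of all probes, and the 2 DMM groups for 0 of 7, beside 5.37%. Whether the time differences themselves differ between the operations is the same contrast as the difference of the DMM effects. That contrast was 0.86 ± 0.43 for Plaur, 0.71 ± 0.57 for Serpinb2, 0.21 ± 0.27 for Plau, 0.05 ± 1.02 for Plat and 0.02 ± 0.29 for Serpine2, with a limma adjusted p of 1.00 for each.

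With both operations averaged, a contrast chosen after seeing the data, Serpine2 was -0.50 ± 0.15 at 6 weeks against 1 week (limma adjusted p = 0.0983). All 8 arrays at 6 weeks lay below the 1-week mean, and the difference was -0.65 on slide 1 and -0.36 on slide 2. Serpinb2 was 0.76 ± 0.29 (limma adjusted p = 0.189), higher than the 1-week mean on 7 of 8 arrays. Without DMM replicate 3 at 1 week it was 0.98 with a limma adjusted p of 0.0364, the one setting of those tried in which a member probe was called. In that fit 1086 of all 43268 probes were called, beside 360 in the fit with all arrays. Plat was -1.15 ± 0.51 (limma adjusted p = 0.270), but -2.32 on slide 1, 0.02 on slide 2 and -0.22 with normexp. Plau was -0.28 ± 0.13 and Plaur -0.35 ± 0.21. Here 0 of 7 member probes were called, beside 0.832% of all probes, and 5 of 7 had an unadjusted p under 0.05, beside 16.5%. The 2 sets of 8 arrays were separate for 0 of 7, beside 0.64%.

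The 5 genes did not move as a unit over the arrays. Of the 10 pairs, 1 had a correlation with an adjusted permutation p under 0.05 (100000 permutations, two-sided, Benjamini-Hochberg over the 10 pairs): Plau and the inhibitor Serpine2. Their levels gave r = 0.74 (permutation p = 0.0011, adjusted p = 0.011) and rho = 0.78 (permutation p = 0.00072, adjusted p = 0.0072). After the group means were subtracted r was 0.57. Within slide 1 it was 0.93 and within slide 2 it was 0.35, so the relation rests more on slide 1. Without the 2 arrays farthest from the median of Plau r was 0.82. The relation uses the main probe of each gene. The other Plau probe correlated with the main one at r = 0.33 (0.07 after the group means were subtracted) and was not set against Serpine2. The receptor Plaur and its ligand Plau gave r = 0.23 (permutation p = 0.398, adjusted p = 0.498), with -0.07 on slide 1 and 0.68 on slide 2. The 2 activators Plau and Plat gave r = 0.33 (permutation p = 0.214, adjusted p = 0.351). The 2 inhibitors Serpine2 and Serpinb2 gave r = -0.45 (permutation p = 0.0823, adjusted p = 0.295).

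The levels moved with markers of several cell types, some of them shared between genes. For each gene the level was set against the mean log2 level of 14 marker lists over the 16 arrays, 70 relations in all, a measure added after seeing the data. At a permutation p adjusted over all 70, 12 relations passed by r, 12 by rho and 10 by both. The 2 that passed by rho alone were those of the fibroblast and synovial lining markers with Serpine2 (rho = 0.69, adjusted p = 0.0283; r = 0.62, adjusted p = 0.0563) and Plat (rho = 0.66, adjusted p = 0.0363; r = 0.61, adjusted p = 0.0563). The permutations moved arrays between groups, so a shift between groups shared by a gene and a list can add to r and lower these p. Each gene is given below with its lists. Osteoclast markers passed for both Plau and Serpine2. Smooth muscle and pericyte markers passed by r for Plat, Serpine2, Plau and, with a negative sign, Serpinb2. A correlation over these arrays says nothing of which cells held the transcript.

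Serpine2 went with the 7 osteoclast markers (Acp5, Ctsk, Calcr, Oscar, Dcstamp, Ocstamp and Mmp9). Over the 16 arrays r was 0.94 (permutation p = 1e-05, the smallest these permutations can give, adjusted p = 0.00035) and rho was 0.94 with the same p. It was 0.94 on slide 1, 0.97 on slide 2, 0.93 after the group means were subtracted and 0.92 without the 2 arrays farthest from the median of Serpine2. The second Serpine2 probe gave r = 0.56 (permutation p = 0.0245, not adjusted) with the same markers. The mean osteoclast marker level was 3.03 ± 0.36 and 3.00 ± 0.55 after sham and DMM at 1 week, and 2.28 ± 0.53 and 2.28 ± 0.29 at 6 weeks. These markers were thus 0.75 and 0.72 log2 units below their 1-week level (-0.75 after sham, -0.72 after DMM), in the same direction as Serpine2. Their part in the Serpine2 difference was not tested. Serpine2 also correlated with 4 markers of smooth muscle and pericytes (r = 0.73, permutation p = 0.0016, adjusted p = 0.014), with 0.86 on slide 1 and 0.06 on slide 2, and by rank that relation did not pass (rho = 0.60, adjusted p = 0.0711).

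Serpinb2 went with the 8 markers of megakaryocytes and platelets (among them Pf4, Itga2b, Gp9, Gp5, Gp1bb, Ppbp and Treml1). Here r was 0.94 (permutation p = 1e-05, adjusted p = 0.00035) and rho was 0.93 with the same p. It was 0.95 on slide 1, 0.92 on slide 2, 0.95 after the group means were subtracted and 0.89 without the 2 arrays farthest from the median. The 2 DMM arrays at 1 week with the lowest Serpinb2 levels also held the 2 lowest marker means, the lower being 1.27. The marker mean was 2.17 ± 0.35 and 1.66 ± 0.58 after sham and DMM at 1 week, and 2.60 ± 0.24 and 2.66 ± 0.27 at 6 weeks. After DMM the markers were thus 0.99 higher at 6 weeks than at 1 week, beside 1.11 for Serpinb2, and the part of the one in the other was not tested. Other marker means also moved over the same time after DMM. They were higher for erythroid (1.56), skeletal muscle (1.27), chondrocyte (0.74) and mast cell and basophil markers (0.55). They were lower for fibroblast and synovial lining (-1.46), osteoclast (-0.72) and osteoblast markers (-0.62), and the remaining lists moved less. After sham the erythroid mean differed by 0.95 and the skeletal muscle mean by 1.31, and the chondrocyte difference was larger than after DMM. Serpinb2 also correlated with erythroid markers (3 on the array, r = 0.84, permutation p = 8e-05, adjusted p = 0.00187; rho = 0.86, adjusted p = 0.00163). The mast cell and basophil markers (4) gave r = 0.79 (permutation p = 0.00027, adjusted p = 0.00472; rho = 0.74, adjusted p = 0.0173). Smooth muscle and pericyte markers gave r = -0.69 (permutation p = 0.00311, adjusted p = 0.0198; rho = -0.70, adjusted p = 0.0269). That relation was -0.94 on slide 1, -0.25 on slide 2 and -0.52 with arrays scaled to the median (adjusted p = 0.142).

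Plaur went with the 9 neutrophil markers (Elane, Mpo, Ltf, Camp, Ngp, Mmp8, Cxcr2, S100a8 and Retnlg). Over the 16 arrays r was 0.77 (permutation p = 0.00068, adjusted p = 0.00793) and rho was 0.84 (permutation p = 0.0001, adjusted p = 0.00175). It was 0.75 on slide 1, 0.83 on slide 2, 0.69 after the group means were subtracted and 0.85 without the 2 arrays farthest from the median of Plaur. With the macrophage and monocyte markers r was 0.62 (permutation p = 0.029, adjusted p = 0.0919), but rho was 0.09, and r was 0.05 without sham replicate 2 at 6 weeks alone. That relation rests on that array. The neutrophil marker mean was 7.09 ± 0.12 and 6.87 ± 0.51 after sham and DMM at 1 week, and 6.69 ± 0.13 and 6.87 ± 0.21 at 6 weeks. From 1 to 6 weeks it differed by -0.41 after sham and 0.01 after DMM, beside -0.78 and 0.08 for Plaur, whose dependence on these cells was not tested.

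Plat went with vascular and osteocyte markers. It correlated with the 4 smooth muscle and pericyte markers (r = 0.74, permutation p = 0.00109, adjusted p = 0.0109; rho = 0.81, adjusted p = 0.00434), with 0.71 on slide 1 and 0.87 on slide 2. With the 7 endothelial markers (Cdh5, Pecam1, Kdr, Tek, Emcn, Tie1 and Esam) r was 0.73 (permutation p = 0.00056, adjusted p = 0.00784; rho = 0.67, adjusted p = 0.0363), with 0.80 on slide 1 and 0.77 on slide 2. The 5 osteocyte markers gave r = 0.72 (permutation p = 0.00196, adjusted p = 0.0152; rho = 0.72, adjusted p = 0.0229), and 0.49 without the 2 arrays on which Plat was lowest. Plau correlated with the osteoclast markers (r = 0.71, permutation p = 0.00217, adjusted p = 0.0152; rho = 0.70, adjusted p = 0.0259), with 0.93 on slide 1 but 0.30 on slide 2. After the group means were subtracted that r was 0.62. The other Plau probe was not set against the marker lists. With smooth muscle and pericyte markers Plau gave r = 0.68 (permutation p = 0.00465, adjusted p = 0.0271), and rho was 0.59, which did not pass (adjusted p = 0.08). It was 0.95 on slide 1 and -0.06 on slide 2, so neither of its relations was alike on both slides.

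**Figure D3:**
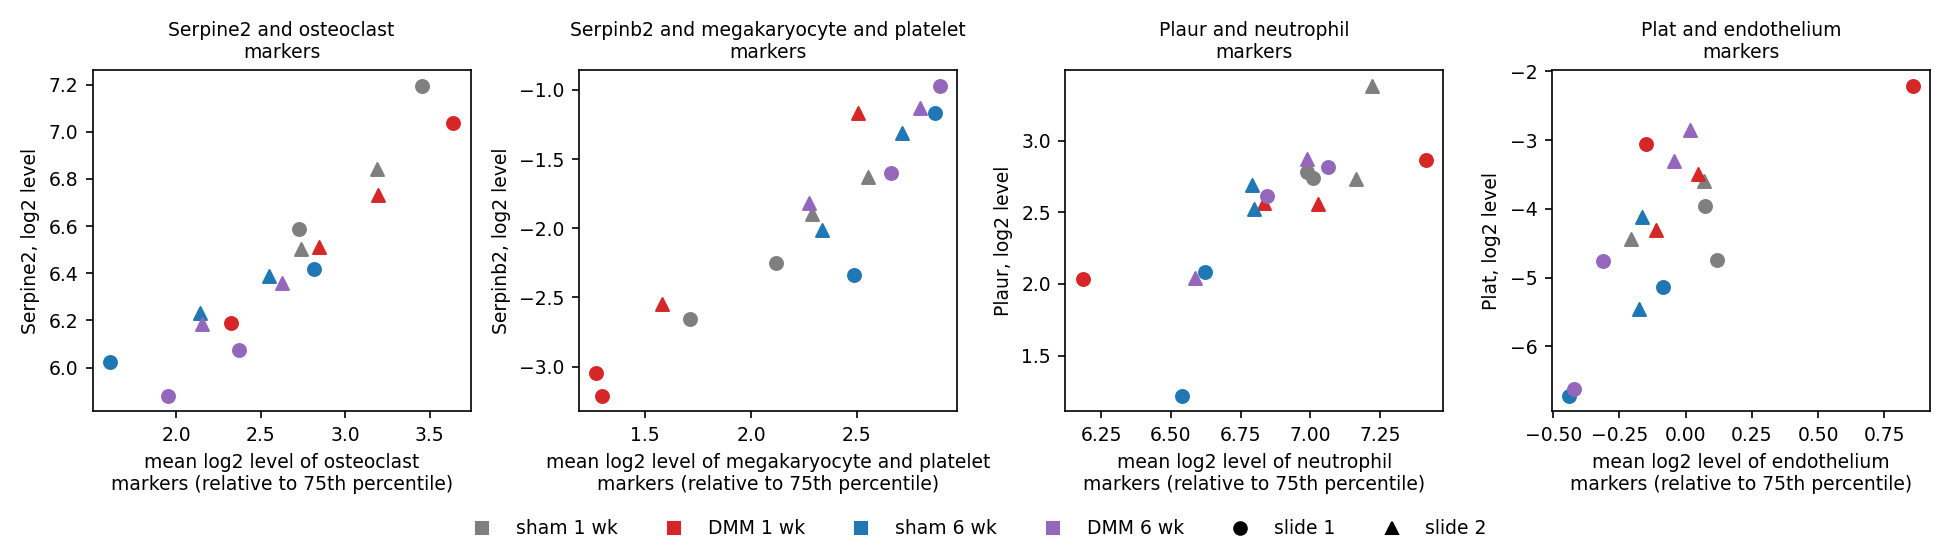
Level of Serpine2, Serpinb2, Plaur and Plat (vertical, log2) against the mean level of a marker list (horizontal, log2 relative to the array's 75th percentile), 1 point per array. Colours are groups and shapes are slides. Serpine2 and Serpinb2 follow their lists closely (r = 0.94 each), while Plaur (0.77) and Plat (0.73) scatter more, and 1 DMM array at 1 week lies far to the right in the Plat panel.

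**Figure D4:**
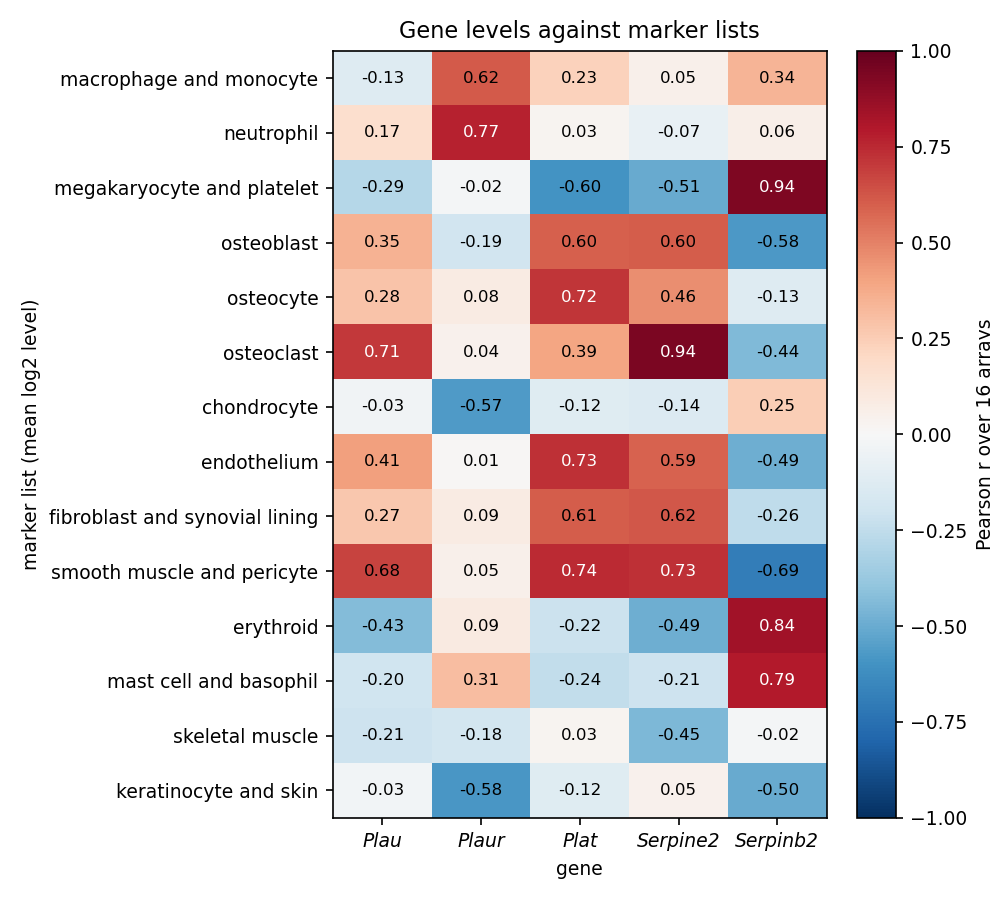
Pearson r over 16 arrays between each gene (columns) and the mean level of each of 14 marker lists (rows), from -1 in blue to 1 in red. The list with the highest value is osteoclast for both Plau and Serpine2, neutrophil for Plaur, smooth muscle and pericyte for Plat, and megakaryocyte and platelet for Serpinb2.

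The single genes most like each member were sought among 18841 genes with a current symbol, 1 probe each, over the 16 arrays after subtraction of the group means. For Serpinb2 these were Alox12, the platelet 12-lipoxygenase (r = 0.99, rho = 0.97), the serotonin transporter Slc6a4 (r = 0.97, rho = 0.93), the platelet chemokine Ppbp (r = 0.97, rho = 0.92), Gcsam (r = 0.96, rho = 0.95) and the platelet receptor Clec1b (r = 0.96, rho = 0.93). For Serpine2 they were Slc9b2, a sodium/proton exchanger (r = 0.95, rho = 0.97), the creatine transporter Slc6a8 (r = 0.95, rho = 0.95), Gpr137b (r = 0.95, rho = 0.94), its pseudogene Gpr137b-ps (r = 0.95, rho = 0.96) and C77080 (r = 0.94, rho = 0.91). Gpr137b and its pseudogene may share signal on these probes. For Plaur they were the acute-phase protein Orm1 (r = 0.98, rho = 0.94), Gm34084 (r = 0.96, rho = 0.97), the transcription factor Klf5 (r = 0.96, rho = 0.94), the receptor Gpr84 (r = 0.96, rho = 0.93) and Orm2 (r = 0.96, rho = 0.93). Orm1 and Orm2 are near-identical copies. For Plat they were Slc35b1 (r = 0.93, rho = 0.91), Sec16a (r = 0.92, rho = 0.94), the growth factor Tgfb2 (r = 0.91, rho = 0.91), Dnm3 (r = 0.89, rho = 0.84) and the matrix protein Thbs4 (r = 0.88, rho = 0.84). For Plau the likeness was lower: Clptm1l (r = 0.87, rho = 0.85), Best1 (r = 0.86, rho = 0.88), 1700036A12Rik (r = 0.85, rho = 0.84), Fam53c (r = 0.82, rho = 0.80) and Gdpd3 (r = 0.78, rho = 0.71). As the highest of so many correlations these values describe the arrays, and no test was made of them.

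The rest of the plasminogen system was counted whole, in 5 lists with 1 probe per gene. No gene of any list was called by limma in DMM against sham at 1 or 6 weeks, where 0% of all probes were called, nor between the times after either operation. At an unadjusted p under 0.05 the DMM comparisons held 2 of the 54 measured list genes at 1 week, F12 and Hgf, beside 0.975% of all probes, and 0 of 54 at 6 weeks, beside 0.904%. Over all 28276 genes the median difference was 0.00 at 1 week and -0.02 at 6 weeks.

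Among plasminogen and the other activators, 8 of 8 genes were measured, 4 higher and 4 lower after DMM at 1 week (median -0.02) and 3 higher and 5 lower at 6 weeks (median -0.06). F12, the clotting factor that starts the contact pathway, was -0.58 ± 0.24 at 1 week (limma adjusted p = 1.00) and 0.43 ± 0.24 at 6 weeks. The membrane protease Hpn read 0.24 ± 0.27 and -0.27 ± 0.27. Plg, plasminogen itself, which the liver makes, read -0.20 ± 0.38 and 0.24 ± 0.38, and its other probe gave 0.05 and -0.90. From 1 to 6 weeks 3 of 8 genes were higher after sham (median -0.03) and 6 of 8 after DMM (median 0.20). Over all genes those medians were 0.04 and 0.03.

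Of 10 other inhibitors, 8 were measured, and Serpina5 and Pzp did not pass the filter. At 1 week 3 were higher and 5 lower after DMM (median -0.08), and at 6 weeks 5 were higher and 3 lower (median 0.16). Serpinf2, the plasmin inhibitor alpha 2-antiplasmin, was -0.59 ± 0.29 at 1 week. At 6 weeks the smallest p in this list were those of Serpinb6a (0.36 ± 0.24) and the complement inhibitor Serping1 (0.32 ± 0.27). Both were positive on slide 1 (0.79 and 0.73) and slightly negative on slide 2 (-0.06 and -0.10). From 1 to 6 weeks 5 of 8 inhibitors were higher after sham (median 0.09) and 7 of 8 after DMM (median 0.24). Over all genes those medians were 0.04 and 0.03.

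All 8 plasminogen receptors were measured, 3 higher and 5 lower after DMM at 1 week (median -0.03) and 6 higher and 2 lower at 6 weeks (median 0.17). Itgb2, the beta chain of leukocyte integrins, read -0.31 ± 0.31 at 1 week and 0.45 ± 0.31 at 6 weeks. Anxa2, a docking protein for plasminogen and Plat, read -0.08 ± 0.17 at 1 week, and Hmgb1 -0.33 ± 0.29 at 6 weeks. Between the times, 7 of 8 were lower at 6 weeks after sham (median -0.34) and 6 of 8 after DMM (median -0.18), beside medians of 0.04 and 0.03 over all genes.

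The 16 partners and clearance receptors of urokinase and its receptor were all measured. After DMM 9 were higher and 7 lower at 1 week (median 0.01), and 5 were higher and 11 lower at 6 weeks (median -0.19, with -0.46 on slide 1 and 0.09 on slide 2). Lrp1, the endocytic receptor that clears complexes of protease and serpin, read 0.10 ± 0.27 at 1 week and -0.31 ± 0.27 at 6 weeks. Mrc2, a collagen receptor that joins urokinase and Plaur in a complex, read 0.20 ± 0.42 and -0.44 ± 0.42, the last being -1.44 on slide 1 and 0.56 on slide 2. The integrin chain Itgb3 read -0.34 ± 0.26 at 1 week. The formyl peptide receptors Fpr1 and Fpr2 read 0.63 ± 0.40 and 0.44 ± 0.30 at 6 weeks, and Fpr1 -0.41 ± 0.40 at 1 week, the same signs as Plaur. From 1 to 6 weeks 12 of 16 were lower after sham and 12 of 16 after DMM (medians -0.24 and -0.39), while 55.2% and 53.6% of all genes were higher. An unadjusted p under 0.05 was held by 2 of the 16 after sham, beside 7.34% of all probes, and by 8 after DMM, beside 10.3%. After sham the list median was -0.30 on slide 1 and -0.25 on slide 2, and after DMM it was -0.66 and -0.11.

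Of 16 substrates of plasmin and urokinase, 14 were measured, and Fgg and Mmp3 did not pass the filter. After DMM 6 were higher and 8 lower at 1 week (median -0.03), and 8 were higher and 6 lower at 6 weeks (median 0.02). Hgf, a growth factor that proteases activate, was -0.48 ± 0.18 at 1 week (limma adjusted p = 1.00), and its 3 other probes read between -0.30 and -0.15. Mmp9, a gelatinase of osteoclasts and neutrophils, read -0.26 ± 0.17 at 1 week. At 6 weeks Pdgfd read 0.44 ± 0.36 and the fibrinogen chain Fgb -0.69 ± 0.68. With both operations averaged, 2 of the 14 genes were called between 6 weeks and 1 week, beside 0.832% of all probes, and are named here after their values were seen. Mmp9 was lower at 6 weeks (-0.80 ± 0.12, limma adjusted p = 0.0347), and Mst1, which encodes macrophage-stimulating protein, was higher (1.01 ± 0.18, limma adjusted p = 0.0347). Neither was called when the arrays were scaled to the median, where 0 of all probes were called. In 12 of the 16 fits with 1 array left out 0 genes of the list were called. In each of those 12 fits between 0 and 11 of all probes were called.

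**Figure D5:**
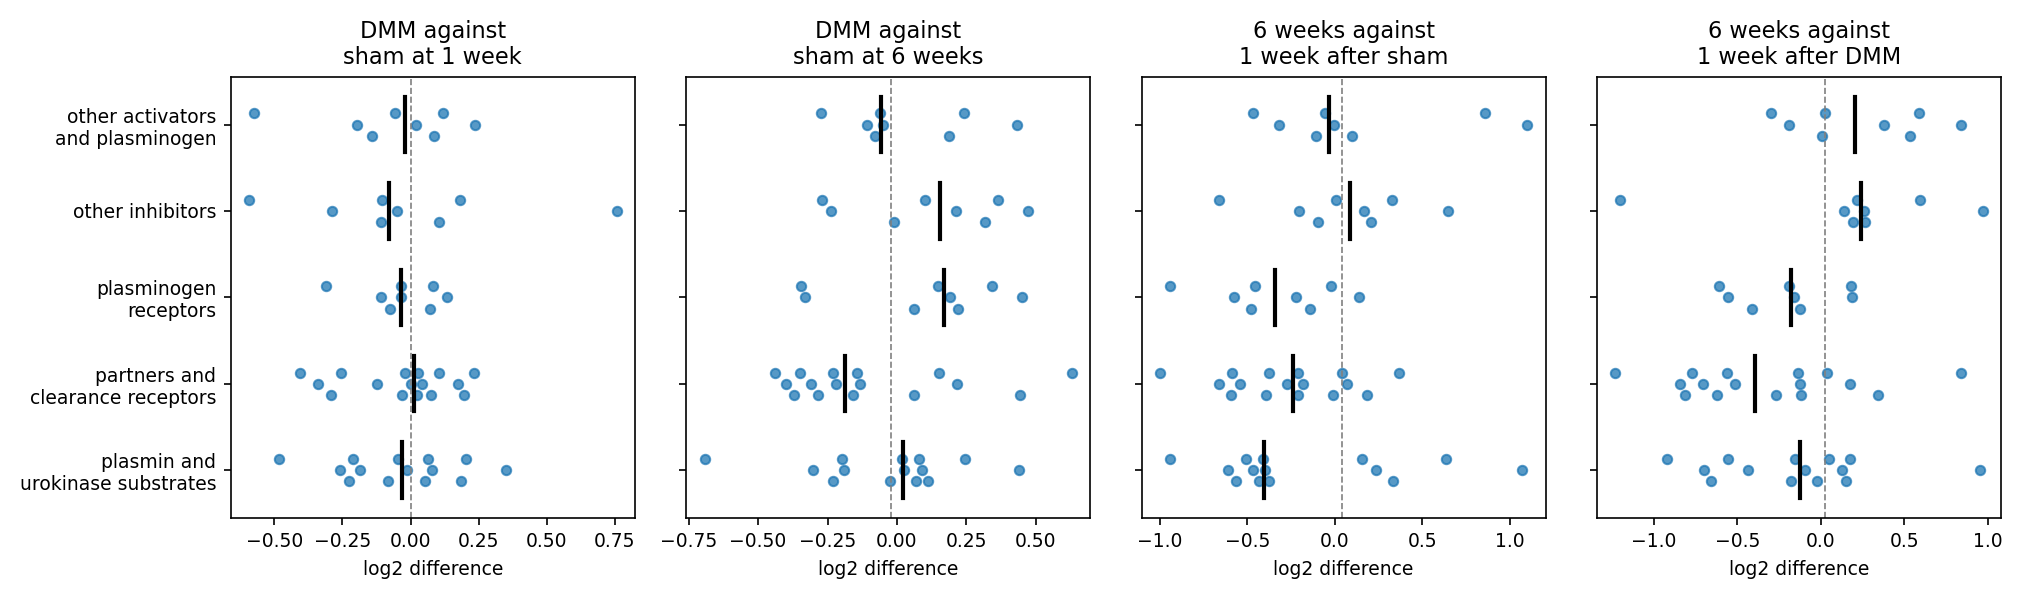
Log2 difference of every measured gene of 5 plasminogen system lists (points) in 4 comparisons, with the list median as a black bar and the median of all genes as a dashed line. The horizontal axes differ between panels. After DMM at 1 week the list medians lie between -0.08 and 0.01. Between the times the receptor, partner and substrate medians lie below that of all genes. The inhibitor median lies above it after both operations, and the activator median lies below it after sham and above it after DMM.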

How the data were processed

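The members and gene lists were chosen with earlier results of these data known. Agilent Feature Extraction 10.7.3.1 made the scanner files, per the file headers. The deposited values are spot intensity after the scanner software's background correction, with a call of whether the spot is well above background. The authors' deposited value table of 50815 probes was read as log2 and served as an alternative. Per the submitters' processing notes limma 3.20.9 was used, and how the table was centred is not given in the sources used here. Its array medians lie between 7.24 and 7.34, and over tested probes each array correlated with its scanner values at 0.992 or more.

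Control spots and outlier spots were left out, and spots of a probe averaged. Log2 values minus the array's 75th percentile were fitted in limma 3.58.1 with 1 mean per group over all 16 arrays (lmFit, eBayes), with Benjamini-Hochberg adjustment over 43268 probes. Of 56605 probes, 342 had no usable spot on some array. The fit was tested on simulated data. Alternatives were normexp (offset 50), quantile and median scaling, other filters, slide as a factor, single arrays left out and the authors' table. A gene's result comes from its probe with the highest mean. Named in each list are the 2 genes with the smallest p at 1 and at 6 weeks, plus Plg, Lrp1 and Mrc2; 1 further gene of this rule is not reported here. Replicate numbers follow the order of the records.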

Additional observations from a re-analysis of the deposited data

Results flagged for a closer look

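Among 32 sets of 4 arrays (8 probes in 4 groups), 1 array stood apart from the other 3 of its group by Dixon's test at the 95% level, which chance alone gives in about 1 in 20 groups. It was the Plaur level of sham replicate 4 at 1 week, 3.38, whose gap to the next array took up 0.929 of the range of its group. Without that array the DMM difference of Plaur at 1 week was -0.25 in place of -0.41.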

How the results depend on the processing

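No paired analysis was possible because the replicate numbers only follow the order of the records and link no sham joint with a DMM joint.

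Differences near 0 changed sign. The Plat difference of DMM effects (0.05) was -0.17 in the authors' table and -0.23 with normexp. That of Serpine2 (0.02) was -0.083 in the authors' table, -0.056 with quantile scaling and -0.96 with its other probe, which also gave 0.28 for DMM at 1 week. That of Plau was -0.10 with its other probe. In the authors' table Plaur gave -0.0052 between times after DMM and -0.035 for the mean DMM effect, and correlated at -0.012 with Serpine2 and -0.0037 with Serpinb2. With normexp the mean DMM effect of Serpinb2 was 0.0056. The correlation of Plaur and Plat (r = 0.31) was -0.18 with normexp. With the main scaling it was -0.093 without sham replicate 2 at 6 weeks.

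Within slides 1 and 2, values far apart were -0.046 and 0.47 for the difference of DMM effects of Plau, 1.38 and 0.35 of Plaur and -1.48 and 1.59 of Plat. For 6 weeks against 1 week after DMM they were -0.49 and 0.13 for Plau, -3.06 and 0.82 for Plat and 1.84 and 0.39 for Serpinb2. They were 1.07 and -0.15 for Plaur in DMM at 6 weeks, and -2.32 and 0.024 for Plat between times over both operations.

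With 1 array left out, the difference of DMM effects ranged from -0.46 to 0.80 for Plat and from -0.12 to 0.16 for Serpine2. The DMM effect of Plau at 6 weeks ranged from -0.19 to 0.0032, and that of Plaur between times after DMM from -0.075 to 0.26. Mean DMM effects ranged from -0.13 to 0.12 for Plaur and from -0.25 to 0.089 for Serpinb2, and the mean time difference of Serpinb2 from 0.64 to 0.98, with 0 to 1 member probes called. The 360 probes called between times over both operations became 644 with normexp, 717 with probes above background on all arrays and 916 with slide as a factor. They became 0 with median scaling and with no filter, and 0 to 2405 with 1 array left out, the highest without sham replicate 2 at 6 weeks. After DMM 0 to 3 were called.

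With 1 array left out, 0 to 2 activators, 0 to 1 inhibitors, 0 to 3 partners and 0 to 2 substrates were called in that average of both operations. The 2 activators and 3 partners were called without sham replicate 2 at 6 weeks, where 2405 of all tested probes were called. With slide as a factor 1 activator and 1 partner were called, beside 916 of all tested probes. With median scaling 0 substrates were called, beside 0 of all tested probes. The cause of these shifts was not tested. The correlations of Serpine2 with osteoclast markers and of Serpinb2 with platelet markers passed under all 5 alternatives tried (scalings, background correction, the authors' table and without the dimmest array). Those that no longer passed were Plaur with neutrophil markers in the authors' table (0.60), Plat with osteocyte markers under normexp (0.45) and without the dimmest array (0.63), and Serpinb2 with smooth muscle markers under median scaling (-0.52). Signals near background limit Plat.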
